A study of Mus musculus with 36 samples.

Results

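Chondrocyte hypertrophy and mineralization were followed through 10 genes, Ihh, Pth1r, Sp7, Col10a1, Alpl, Phospho1, Enpp1, Ibsp, Spp1 and Panx3, in articular cartilage of mouse knees with and without surgical destabilization of the medial meniscus (DMM), an operation that leads to osteoarthritis. The count tables listed 30048 RefSeq transcripts of 23048 genes with a symbol, and 16 of these transcripts belonged to the 10 genes. Each gene was represented by its transcript with the highest mean count over the 12 RNA libraries. For 5-methylcytosine (5mC), the CpG cytosines in the gene bodies and 5 kb to either side were used, which gave 823 of 1445146 cytosines tested at 4 weeks and 800 of 1273156 at 12 weeks.

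Chondrocytes that leave the resting state of articular cartilage can enlarge and make a matrix that calcifies, a program known from the growth plate and also described in osteoarthritic joints. Indian hedgehog (Ihh) from cells that begin to enlarge induces parathyroid hormone-related protein (Pthlh), which acts through its receptor Pth1r to hold other chondrocytes back from hypertrophy. Hypertrophic cells secrete type X collagen, and mineral then forms where phosphatases release phosphate and remove pyrophosphate, the main small inhibitor of crystal growth.

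The mice were male C57BL/6J, 12 weeks old at surgery, with DMM in the right knee and no operation on the left knee, which was the control. Cartilage from 3 knees was pooled for each library, and 3 libraries per limb were made at 4 and at 12 weeks after surgery for RNA-seq and, from other mice, for reduced representation bisulfite sequencing with oxidation (oxBS, which reads 5mC alone) and without it (BS, which reads 5mC together with 5-hydroxymethylcytosine). The unoperated knee is a control within an operated animal, and no sham-operated knee was analysed here. The labels do not say which mice entered which pool, so p-values measure the spread between these pools. The counts of a library, summed over all listed transcripts, were between 27706547 and 62737656. A read can enter this sum more than once, where transcripts of a gene share sequence. The lowest count of any of the 10 genes in a library was 76 reads, for Panx3, and the highest 352055, for Spp1.

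Levels are given as CPM (counts relative to the assigned reads of the library), scaled with TMM factors, and fold changes are on the log2 scale of edgeR. Divided by transcript length, the 10 genes spanned a wide range. The order by mean over all 12 libraries was Spp1 at 4081 CPM per kb, Ibsp at 1669, Col10a1 at 297, Alpl at 252, Pth1r at 68.7, Enpp1 at 30.8, Ihh at 12.9, Sp7 at 11.8, Phospho1 at 7.67 and Panx3 at 5.30. Among 19407 genes, Spp1 ranked 12 and Ibsp 22, whereas Panx3 ranked 7408. Over the 12 libraries, the ranges of neighbours in this order overlapped, other than those of Alpl and Pth1r and of Pth1r and Enpp1. In bulk tissue, fewer cells of a type and less RNA per cell cannot be told apart, and this holds for each RNA value.

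At 12 weeks all 10 genes had higher mean RNA in DMM than in control cartilage, with a median log2 fold change of 0.86 against 0.01 over all 21010 transcripts tested. In 7 of the 10, Ihh, Pth1r, Alpl, Ibsp, Spp1, Sp7 and Phospho1, the lowest DMM library exceeded the highest control library. This pattern was seen in 9.9% of all 15439 genes tested at 12 weeks. None of the 10 passed edgeR's adjusted p of 0.05 over all transcripts, a threshold that 0.00476% of transcripts passed, while 8 of the 10 had an unadjusted p under 0.05 with higher RNA in DMM, against 8.94% of all transcripts. DESeq2 called Pth1r, Alpl and Ibsp higher, with 2.7% of its transcripts called higher. Without control 2, edgeR called Col10a1 (log2 fold change 1.52, adjusted p = 0.0364) and Ihh (1.15, adjusted p = 0.0467), where 1.94% of transcripts were called higher. No fit without another single library called more of the 10. Control 2 had the highest summed chondrocyte markers of the control libraries (30000 CPM, against 18090 in control 1 and 10700 in control 3). The part of this in the calls was not tested.

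The members did not move together at 4 weeks. Means were higher in DMM for 8 and lower for 2, with a median log2 fold change of 0.14 against -0.03 over all 21140 transcripts tested. Several of these means turned with 1 library, since Col10a1 and Alpl were lower in DMM without control 3 (-0.13 and -0.02) and without DMM 1 (-0.20 and -0.19), Enpp1 without control 3 (-0.15), and Pth1r and Phospho1 without DMM 1 (-0.003 and -0.08). No member passed edgeR's adjusted threshold, which 0.0757% of transcripts passed. Ibsp alone had an unadjusted p under 0.05 in edgeR (6.11% of transcripts did so with higher values in DMM) and was also called higher by DESeq2 (1.32% of transcripts called higher). The libraries of Ibsp and Spp1 were without overlap, a pattern held by 10.8% of 15540 genes.

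**Figure D1:**
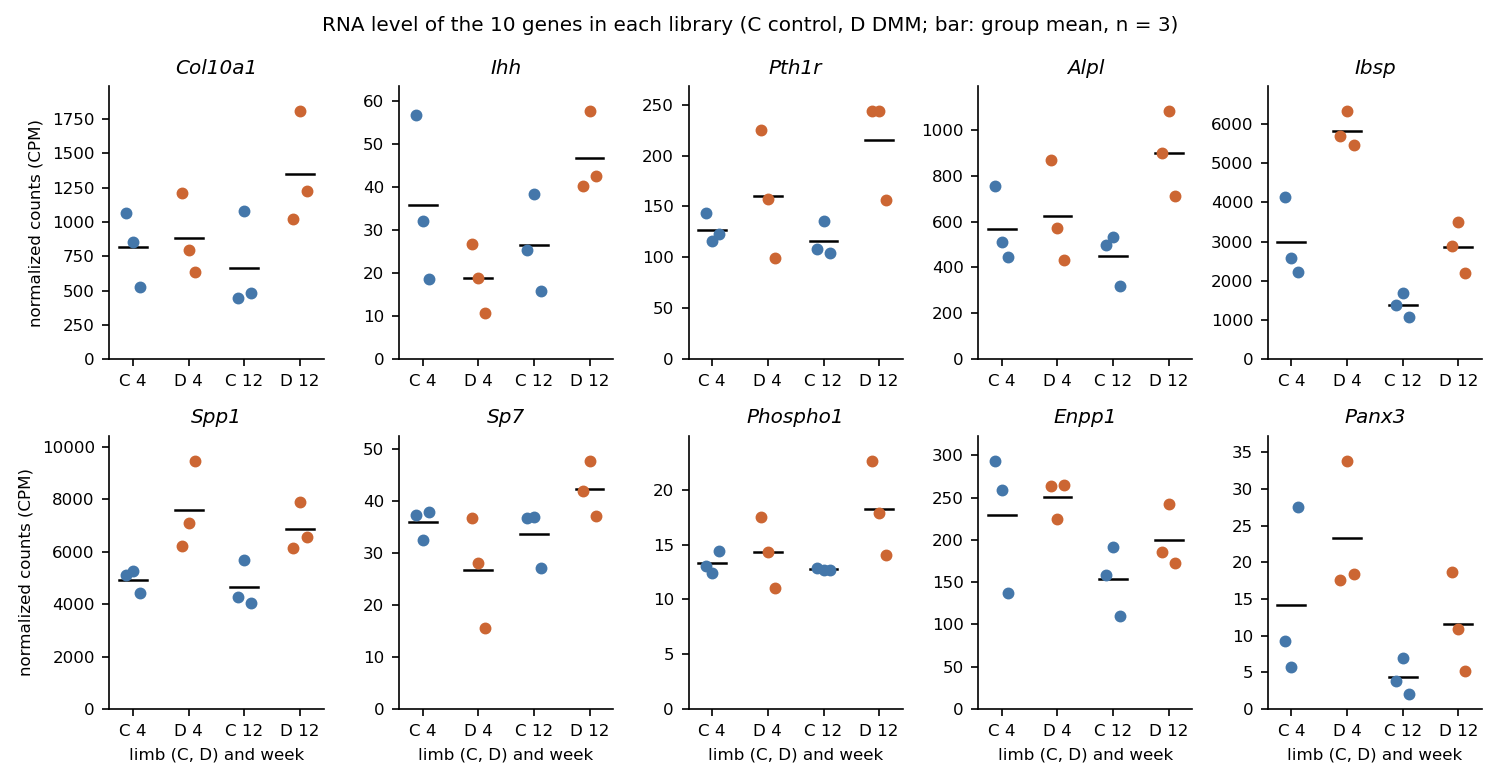
Normalized RNA counts (CPM, linear axes from 0) of the 10 genes in each of the 12 libraries, with control libraries in blue, DMM libraries in orange and a bar at the mean of each group of 3. At 12 weeks the orange points lie above the blue ones in 7 of the 10 panels, and Ibsp and Spp1 are also separated at 4 weeks.

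Ihh, the hedgehog ligand of prehypertrophic chondrocytes, was the one member with opposite directions at 4 and 12 weeks at sizes near 1 log2 unit. At 4 weeks Ihh was 56.5, 32.1 and 18.6 CPM in the control libraries and 26.6, 18.8 and 10.8 CPM in the DMM libraries. The DMM values were on average lower, but the groups overlapped, and the log2 fold change of -0.92 (SE 0.44) had an adjusted p of 0.385 in edgeR. At 12 weeks Ihh was 25.3, 38.3 and 15.9 CPM in control and 40.2, 57.6 and 42.5 CPM in DMM. All 3 DMM libraries were then above the control libraries, with a log2 fold change of 0.82 (SE 0.30, edgeR adjusted p = 0.274). Between 4 and 12 weeks the limb difference shifted by 1.75 (SE 0.60), with an unadjusted p of 0.0129 and an adjusted p of 0.405 for the interaction of limb and week in edgeR. This was the one member of 10 with an unadjusted interaction p under 0.05, against 7.8% of transcripts with a shift in this direction. The direction of the shift was shared by 9 of the 10 members (median 0.63), 12 of 12 hedgehog and parathyroid hormone-related protein genes (median 0.94) and 15 of 15 chondrocyte markers (median 1.17). It was opposite for 13 of 13 bone marrow markers (median -0.40). Neither edgeR nor DESeq2 called any member for the interaction, and they called 0% and 0.0613% of all transcripts.

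Pth1r, the receptor for parathyroid hormone and parathyroid hormone-related protein, had the smallest unadjusted edgeR p of the 10 genes at 12 weeks (0.00275, with Ibsp at 0.00296). In DESeq2 the unadjusted p was smaller for Ibsp (7.3e-06) and Alpl (4.15e-05) than for Pth1r (6.91e-05). Control libraries held 109, 136 and 105 CPM and DMM libraries 244, 244 and 157 CPM. The 2 groups did not overlap. The log2 fold change was 0.89 (SE 0.21), or 1.86-fold, with an adjusted p of 0.21 in edgeR and 0.0062 in DESeq2. At 4 weeks Pth1r was 143, 116 and 123 CPM in control and 226, 157 and 99.2 CPM in DMM, with both the highest and the lowest value among the DMM libraries (log2 fold change 0.34, SE 0.30, edgeR adjusted p = 0.588). Its ligand Pthlh, which is no member and is named here for that role, averaged 6.53 CPM in control and 13.1 CPM in DMM at 12 weeks (log2 fold change 1.002, SE 0.32, edgeR adjusted p = 0.25), with all DMM libraries higher. At 4 weeks Pthlh averaged 9.17 and 9.14 CPM.

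Sp7 (osterix), a zinc-finger factor required for bone formation, showed small differences. At 12 weeks its control libraries held 36.7, 36.8 and 27.1 CPM and its DMM libraries 41.9, 47.7 and 37.1 CPM. The groups were separated by a narrow gap, and the log2 fold change was 0.34 (SE 0.16, edgeR adjusted p = 0.332). At 4 weeks the control libraries held 37.3, 32.5 and 37.9 CPM and the DMM libraries 36.6, 28.1 and 15.5 CPM (log2 fold change -0.42, SE 0.30, edgeR adjusted p = 0.502).

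Col10a1 encodes type X collagen, the defining matrix protein of hypertrophic chondrocytes. At 12 weeks it was 443, 1080 and 482 CPM in control and 1020, 1809 and 1227 CPM in DMM. One control library reached the DMM range, so the groups overlapped although the mean was 2.03-fold higher (log2 fold change 1.02, SE 0.38, edgeR adjusted p = 0.274, DESeq2 adjusted p = 0.0691). At 4 weeks the control libraries held 1066, 856 and 523 CPM and the DMM libraries 1214, 795 and 634 CPM. Each group then spanned a similar range, with a log2 fold change of 0.12 (SE 0.36, edgeR adjusted p = 0.89).

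Alpl, tissue-nonspecific alkaline phosphatase, frees phosphate by splitting pyrophosphate. Its libraries held 497, 533 and 317 CPM in control and 899, 1082 and 709 CPM in DMM at 12 weeks. All DMM libraries were above all control libraries, and the fitted mean was 2.01-fold higher (log2 fold change 1.005, SE 0.25, adjusted p = 0.21 in edgeR and 0.00428 in DESeq2). At 4 weeks the values were 753, 509 and 445 CPM in control and 869, 571 and 434 CPM in DMM, which overlapped (log2 fold change 0.14, SE 0.34, edgeR adjusted p = 0.854).

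Phospho1, a phosphatase that acts inside matrix vesicles, and Enpp1, which makes pyrophosphate and so opposes Alpl, moved less. Phospho1 was 12.8, 12.7 and 12.7 CPM in control and 22.7, 17.9 and 14.1 CPM in DMM at 12 weeks. The control libraries were nearly equal and all DMM libraries were higher (log2 fold change 0.52, SE 0.19, edgeR adjusted p = 0.274). At 4 weeks Phospho1 ranged from 12.4 to 14.4 CPM in control and from 11.0 to 17.5 CPM in DMM, with a log2 fold change of 0.10 (SE 0.23). Enpp1 was 158, 192 and 110 CPM in control and 185, 243 and 172 CPM in DMM at 12 weeks, with overlap (log2 fold change 0.39, SE 0.23, edgeR adjusted p = 0.401). At 4 weeks Enpp1 ranged from 137 to 294 CPM in control and from 224 to 265 CPM in DMM.

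Ibsp (bone sialoprotein), a matrix protein that nucleates mineral, was about 2-fold higher in DMM at both weeks. At 4 weeks its control libraries held 4146, 2579 and 2235 CPM and its DMM libraries 5695, 6338 and 5458 CPM. At 12 weeks the control libraries held 1394, 1678 and 1069 CPM and the DMM libraries 2880, 3497 and 2191 CPM. The groups did not overlap at either week. The log2 fold change was 0.97 (SE 0.34) at 4 weeks, with an adjusted p of 0.319 in edgeR and 0.0278 in DESeq2, and 1.06 (SE 0.25) at 12 weeks, with 0.21 in edgeR and 0.000995 in DESeq2. The limb difference at 12 weeks exceeded that at 4 weeks by 0.08 (SE 0.41), with an interaction p of 0.84 before adjustment in edgeR.

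Spp1 (osteopontin), an acidic phosphoprotein that binds mineral and cells, was the most abundant of the 10. At 4 weeks it was 5103, 5269 and 4424 CPM in control and 6220, 7101 and 9474 CPM in DMM, and at 12 weeks 4276, 5686 and 4054 CPM in control and 6144, 7901 and 6578 CPM in DMM. The DMM libraries were higher without overlap at both weeks, by 0.62 (SE 0.32, edgeR adjusted p = 0.396) and 0.56 (SE 0.22, edgeR adjusted p = 0.278) on the log2 scale. The deposited table lists 5 transcripts of Spp1 and 3 of Pth1r, which carry nearly the same counts and cannot be read as separate isoforms.

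Panx3, a pannexin channel of prehypertrophic chondrocytes and osteoblasts, had the lowest level and the widest spread. At 12 weeks it was 3.86, 7.03 and 2.06 CPM in control and 18.7, 10.9 and 5.14 CPM in DMM, a 2.71-fold difference of the fitted means with overlapping libraries (log2 fold change 1.44, SE 0.58, edgeR adjusted p = 0.294). At 4 weeks it ranged from 5.80 to 27.6 CPM in control and from 17.5 to 33.9 CPM in DMM (log2 fold change 0.69, SE 0.56).

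**Figure D2:**
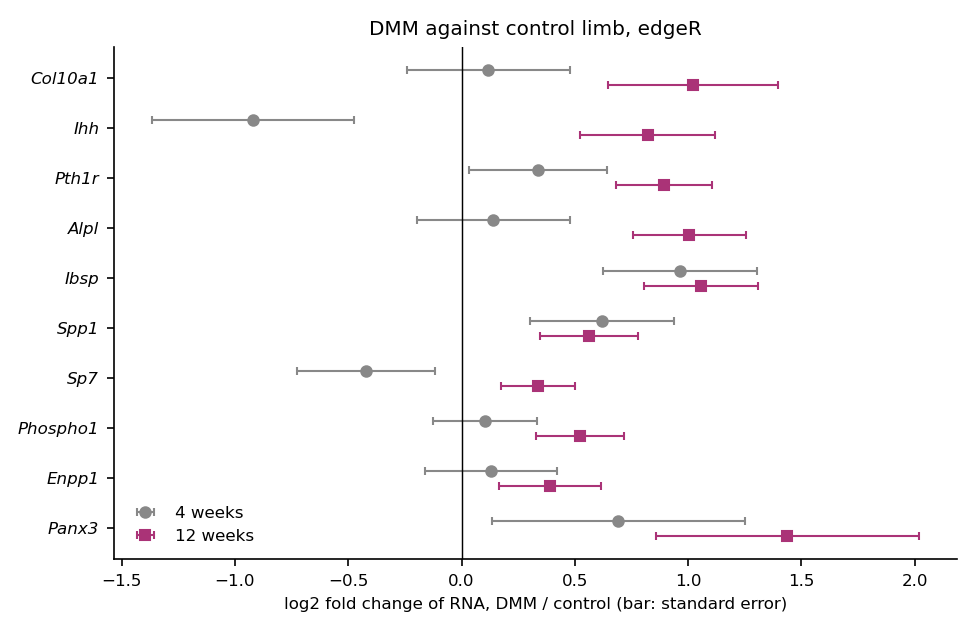
Log2 fold change of RNA in DMM over control for each of the 10 genes at 4 and 12 weeks, with bars of 1 standard error from edgeR and a vertical line at 0. The 12-week points all lie to the right of 0, from 0.34 for Sp7 to 1.44 for Panx3, whereas the 4-week points of Ihh and Sp7 lie to the left.

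Levels were also compared between weeks within each limb, where time after surgery and the age of the mice cannot be told apart. These comparisons share libraries with the limb comparisons. The summed osteoblast and osteocyte markers were higher at 12 than at 4 weeks without overlap in both limbs (3697 to 7349 and 8050 to 17100 CPM in control, 4725 to 8079 and 11430 to 13720 CPM in DMM). Of the 9 tested, 8 were higher in control, while in DMM 5 were higher and 4 lower. Col1a1 and Col1a2 weighed most in these sums, with means of 3728 and 3742 CPM over all libraries against 584 CPM for Mepe, the next highest. In DMM the sums of 3 other marker lists were also without overlap between weeks. These were fibroblasts and synovium (8011 to 11570 CPM at 4 weeks and 11970 to 19060 at 12, although 6 of 8 genes were lower, median log2 fold change -1.12), endothelium (104.8 to 130.6 and 52.1 to 76.9 CPM) and adipocytes (158 to 252 and 80.9 to 116 CPM). The fibroblast and synovium sum followed Prg4, which averaged 6618 CPM at 4 weeks and 13380 CPM at 12 weeks in DMM. Chondrocyte markers were higher at 12 weeks in DMM for 13 of 15 (median 0.51) with overlapping sums, and edgeR called 3 of them higher, Acan (log2 fold change 1.34), Col9a2 (1.42) and Col11a2 (1.78), while in control 13 of 15 were lower (median -0.71). In DMM edgeR also called 4 fibroblast and synovium, 2 endothelial and 2 adipocyte markers lower. It called 2 osteoblast and osteocyte, 1 fibroblast and synovium and 1 bone marrow marker higher. Skeletal muscle markers were higher in DMM for 12 of 12 (median 0.93), with none called. Over all transcripts in DMM, 13.6% were called higher and 10.1% lower. In control, markers of fibroblasts and synovium were lower at 12 weeks for 7 of 8 (median -0.94) and skeletal muscle for 12 of 12 (median -1.28). Bone marrow markers were higher for 11 of 13 (median 0.87), and all 4 endothelial and 4 adipocyte markers were lower. In control edgeR called 2 fibroblast and synovium markers lower and 1 higher, and 1 bone marrow marker higher. Over all transcripts in control, 3.24% were called lower and 2.47% higher. The part of these lists in the weekly values was not tested. In control cartilage all 10 members had lower means at 12 than at 4 weeks, although Ihh (-0.43) turned to 0.042 without 4-week control 1, and edgeR called 1, Ibsp, which fell by 1.11 (SE 0.29, edgeR adjusted p = 0.0457); 3.24% of transcripts were called lower. Panx3 was lower by a log2 fold change of -1.71 (SE 0.64) with an adjusted p of 0.124 in edgeR and 0.0277 in DESeq2. In DMM cartilage Ihh rose by 1.32 (SE 0.43, edgeR adjusted p = 0.0434) and Ibsp fell by 1.03 (SE 0.29, edgeR adjusted p = 0.0259), against 13.6% of transcripts called higher and 10.1% called lower. The directions of these 3 differences held in each fit that left out 1 library, with log2 fold changes from -1.32 to -0.83 for Ibsp in control, 0.997 to 1.65 for Ihh in DMM and -1.22 to -0.87 for Ibsp in DMM, but the calls did not. Among these fits, Ibsp in control stayed called without 4-week control 3 and lost its call without any of the other 5 libraries (edgeR adjusted p from 0.0613 to 0.158). Ihh in DMM lost its call without any library but 4-week DMM 1 (0.0716 to 0.182), and Ibsp in DMM without 4-week DMM 2 or 3 or 12-week DMM 1 or 3 (0.0582 to 0.104).

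Other genes of the same pathways were counted in 3 lists. In hedgehog and parathyroid hormone-related protein signalling, 8 of 12 genes were lower at 4 weeks (median log2 fold change -0.62) and 10 of 12 higher at 12 weeks (median 0.50). Of the regulators and effectors of hypertrophy, 13 of 16 were lower at 4 weeks (median -0.45) and 14 of 16 higher at 12 weeks (median 0.36). The mineralization and pyrophosphate genes split evenly at 4 weeks, with 7 of 14 tested in each direction (median 0.07), and 12 of 14 were higher at 12 weeks (median 0.44). EdgeR called none of these genes between limbs at either week. At an unadjusted p under 0.05 there were 9 lower and none higher at 4 weeks (4, 4 and 1 in the order above), against 7.57% of all transcripts lower. At 12 weeks there were 11 higher and 1 lower (2, 5 and 4 higher), against 8.94% of all transcripts higher and 7.39% lower. DESeq2 called none at 4 weeks and 2 at 12 weeks, where it called 2.7% of its transcripts higher.

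The 2 genes that DESeq2 called were Bmp6, a bone morphogenetic protein of hypertrophic chondrocytes, and Ank, which exports pyrophosphate. Bmp6 averaged 5.90 CPM in control and 14.1 CPM in DMM at 12 weeks (log2 fold change 1.25, SE 0.33, adjusted p = 0.215 in edgeR and 0.0152 in DESeq2). Ank averaged 156 CPM in control and 306 CPM in DMM (log2 fold change 0.98, SE 0.29, adjusted p = 0.236 in edgeR and 0.0267 in DESeq2). In control cartilage between weeks edgeR called 2 of the list genes, against 3.24% of transcripts lower: Bmp6 fell by 2.02 (edgeR adjusted p = 0.0183) and the hedgehog receptor Ptch1 fell by 1.45 (edgeR adjusted p = 0.0463). DESeq2 called 4 hedgehog and parathyroid hormone-related protein genes, 3 regulators and effectors and 2 mineralization genes lower there, against 7.49% of its transcripts. In DMM cartilage between weeks edgeR called 4 of 16 regulators and effectors of hypertrophy higher and 1 lower, and 1 of 15 mineralization genes in each direction, against 13.6% of transcripts higher and 10.1% lower. These were Sox9 (2.08), Vegfa (1.44), Smoc1 (1.37), Runx3 (1.19) and Mef2d (1.07), which were higher at 12 weeks, and the collagenase Mmp13 (-1.27) and annexin Anxa2 (-0.70), which were lower, as log2 fold changes. Sox9, the master factor of cartilage, averaged 139 CPM in control and 67.6 CPM in DMM at 4 weeks, and 171 and 286 CPM at 12 weeks, a pattern that did not pass edgeR between limbs at either week (adjusted p = 0.331 and 0.342).

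Several abundant genes of these lists were not called between limbs. Sparc (osteonectin), which binds collagen and mineral, averaged 4198 CPM in control and 6630 CPM in DMM at 12 weeks (log2 fold change 0.66, SE 0.30, edgeR adjusted p = 0.318). Gas1, a hedgehog co-receptor, had log2 fold changes of -1.34 (SE 0.46) at 4 weeks and 0.83 (SE 0.63) at 12 weeks. Mmp13, the main collagenase of hypertrophic cartilage, averaged 442 CPM in control and 850 CPM in DMM at 4 weeks (log2 fold change 0.93, SE 0.46, edgeR adjusted p = 0.391) and 335 and 352 CPM at 12 weeks. Anxa5, a calcium-binding annexin of matrix vesicles, was higher without overlap at 4 weeks (log2 fold change 0.62, SE 0.29, edgeR adjusted p = 0.383) and had a log2 fold change of 0.50 (SE 0.22, edgeR adjusted p = 0.314) at 12 weeks. Nt5e, which makes adenosine and phosphate, averaged 320 and 539 CPM at 12 weeks (log2 fold change 0.76, SE 0.30, edgeR adjusted p = 0.284).

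**Figure D3:**
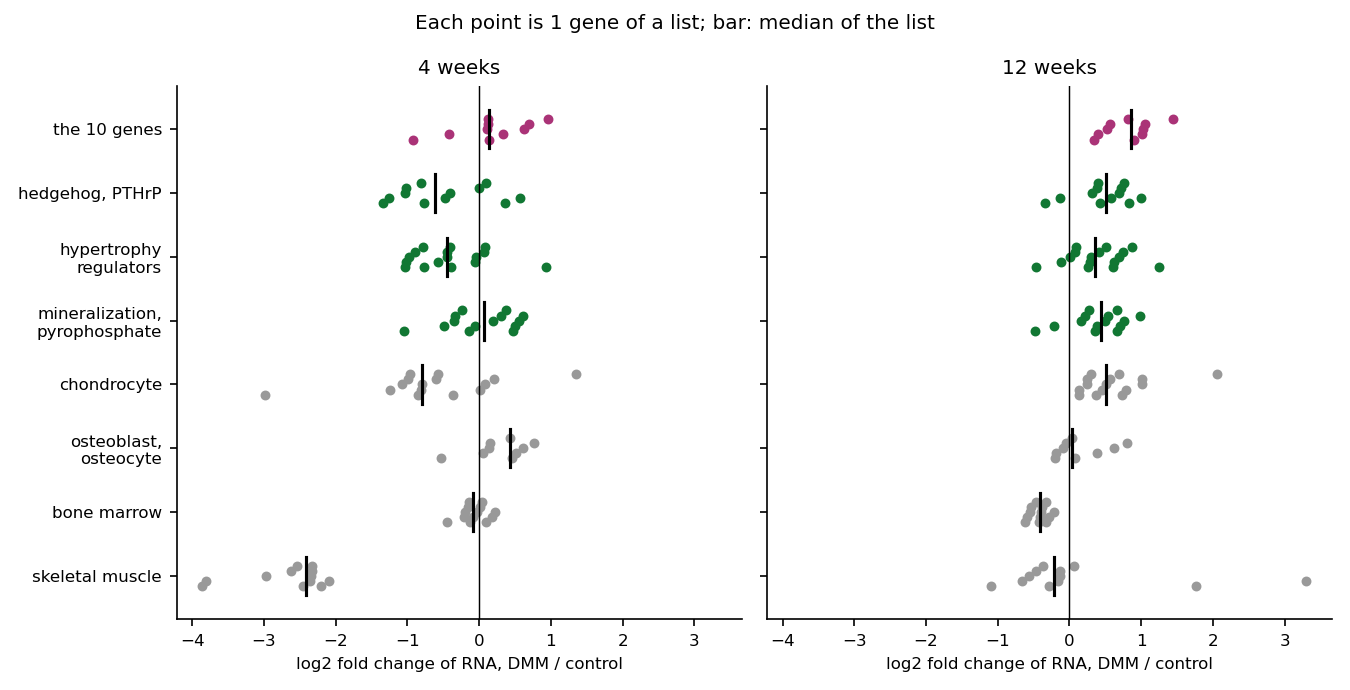
Log2 fold change of RNA in DMM over control at 4 weeks (left) and 12 weeks (right) for each gene of the member list (purple), the pathway lists (green) and the cell type marker lists (grey), with a bar at the median of each list. The member median moves from 0.14 to 0.86, the chondrocyte median from -0.80 to 0.51, and the skeletal muscle points at 4 weeks lie to the left of 0.

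The dissected tissue held more than cartilage. Summed chondrocyte markers ranged from 10700 to 48450 CPM over all libraries, with Acan and Col2a1 at means of 493 and 981 CPM, while Matn1, a marker of non-articular cartilage, averaged 0.789 CPM. At 12 weeks all 15 chondrocyte markers had higher means in DMM, beside the 10 members (median log2 fold change 0.51, summed CPM of 10700 to 30000 in control and 20950 to 34740 in DMM), and all 13 bone marrow markers had lower means (median -0.41, 29630 to 45660 CPM in control and 23160 to 37880 in DMM). DESeq2 called 2 chondrocyte markers higher, against 2.7% of its transcripts. Markers of fibroblasts and synovium were higher for 7 of 8 (median 0.91, 5942 to 17030 CPM in control and 11970 to 19060 in DMM), and DESeq2 called 4 of them, Dpt (log2 fold change 3.29), Col3a1, Clec3b and Thy1. The sums of this list were mostly Prg4, with a mean of 10120 CPM over all libraries against 1512 CPM for Col3a1, the next highest. Osteoblast and osteocyte markers, a list of interest because Ibsp, Spp1, Sp7 and Alpl are also made by bone cells, were higher for 5 of the 9 tested (median 0.04, 8050 to 17100 CPM in control and 11430 to 13720 in DMM). DESeq2 called 2 of these, the osteocyte genes Mepe (502 CPM in control and 768 CPM in DMM on average, log2 fold change 0.62, SE 0.16, adjusted p = 0.215 in edgeR and 0.00193 in DESeq2) and Sost (177 and 307 CPM, log2 fold change 0.80, SE 0.20, adjusted p = 0.21 in edgeR and 0.0092 in DESeq2), each higher in every DMM library. The part of each of these in the member values was not tested.

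At 4 weeks, 12 of 12 skeletal muscle markers were lower in DMM (median -2.41), with summed levels of 5430 to 20360 CPM in control and 580 to 3291 CPM in DMM. EdgeR called 1 of them and DESeq2 9, all lower, against 0.0142% and 2.12% of transcripts called lower. Chondrocyte markers were lower for 11 of 15 (median -0.80, 18770 to 48450 CPM in control and 15870 to 23020 in DMM), and osteoblast and osteocyte markers higher for 8 of 9 (median 0.43, 3697 to 7349 CPM in control and 4725 to 8079 in DMM). DESeq2 called 1 chondrocyte marker, which was higher, against 1.32% of its transcripts called higher. Fibroblast and synovium markers were higher for 6 of 8 (median 1.11, 6796 to 15240 CPM in control and 8011 to 11570 in DMM), and DESeq2 called 3 of them, Dpt (log2 fold change 1.99), Thy1 (1.38) and Pdgfra. Prg4, which made up most of these sums, was 1 of the 2 lower genes, with means of 10410 CPM in control and 6618 CPM in DMM. The summed adipocyte markers were also without overlap (142.9 to 157.7 CPM in control and 158.1 to 252.4 in DMM, 3 of 4 higher, median 0.32). Of 4 endothelial markers 2 had higher means, Pecam1 (log2 fold change 0.46, edgeR adjusted p = 0.362) and Emcn (0.75, edgeR adjusted p = 0.32), both without overlap. These lists stood beside the higher Ibsp and Spp1 and the lower mean of Ihh at 4 weeks, and their part was not tested. Among the osteoblast and osteocyte markers, Bglap (osteocalcin) averaged 318 CPM in control and 456 CPM in DMM at 4 weeks and 418 and 363 CPM at 12 weeks, while Fgf23 was near 0 with a mean of 0.0843 CPM.

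The genes whose log2 CPM followed each member most closely over the 12 libraries are given as a description. The points share libraries, limb and week. Pth1r and Phospho1 were each among the 3 closest of the other (Pearson r = 0.912), Pth1r was also close to Creb3l1 (0.914) and Alpl (0.913), and Phospho1 to Runx2 (0.904) and Creb3l1 (0.866). Alpl was closest to Col2a1 (0.946), Id3 (0.944) and Srgap1 (0.937). Ibsp was closest to Tmem100 (0.970), Itm2a (0.960) and Cgnl1 (0.956), and Sp7 to Bmp8a (0.932), Hexa (0.921) and Phf2 (0.916). For Ihh they were 1700003D09Rik (0.984), Wwp2 (0.978) and Ppp1r1b (0.977), for Enpp1 Sox5 (0.983), A4galt (0.979) and Bok (0.976), and for Col10a1 Yipf3 (0.973), Dchs1 (0.945) and Srcin1 (0.944). For Spp1 they were Mterf4 (0.947), Eea1 (0.931) and Bet1l (0.926), and for Panx3 Ppa1 (0.884), Ralgapa1 (0.879) and Ubxn7 (0.865).

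RefSeq promoters on GRCm38 were matched for 8 members with 12 starts, and they differ widely in CpG content. A promoter, for the sequences, is taken here as the 250 bases before the start. The count of CpG ranged from 2 for Ibsp to 34 for Phospho1, against a median of 6 over 32851 mouse promoters and quartiles of 2 and 16. The 5 sequences are shown because they contrast the promoters of Ihh and of the outer start of Alpl, above the upper quartile, with those of the matrix genes, below the median. The promoter of the inner start of Alpl, not shown, held 4 CpG. Each reads 5′ to 3′ on the strand of the gene up to the base before the start, with CpG in capitals.
Ihh, chr1:74951673-74951922, minus strand: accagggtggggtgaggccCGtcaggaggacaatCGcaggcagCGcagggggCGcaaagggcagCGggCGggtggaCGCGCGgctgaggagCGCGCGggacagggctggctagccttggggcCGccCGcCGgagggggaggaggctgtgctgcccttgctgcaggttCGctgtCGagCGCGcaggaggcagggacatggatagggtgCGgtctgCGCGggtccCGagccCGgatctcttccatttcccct
Alpl, chr4:137796385-137796634, minus strand: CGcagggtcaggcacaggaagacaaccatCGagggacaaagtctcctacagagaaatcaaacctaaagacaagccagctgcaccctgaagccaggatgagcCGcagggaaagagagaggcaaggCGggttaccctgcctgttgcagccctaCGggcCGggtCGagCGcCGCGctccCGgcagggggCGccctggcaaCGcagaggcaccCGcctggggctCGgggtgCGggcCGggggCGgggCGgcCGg
Col10a1, chr10:34389731-34389980, plus strand: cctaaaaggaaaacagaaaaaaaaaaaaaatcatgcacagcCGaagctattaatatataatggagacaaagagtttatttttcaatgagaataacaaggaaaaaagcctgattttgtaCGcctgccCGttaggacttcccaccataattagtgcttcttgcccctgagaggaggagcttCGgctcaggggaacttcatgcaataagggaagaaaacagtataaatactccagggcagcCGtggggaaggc
Ibsp, chr5:104299037-104299286, plus strand: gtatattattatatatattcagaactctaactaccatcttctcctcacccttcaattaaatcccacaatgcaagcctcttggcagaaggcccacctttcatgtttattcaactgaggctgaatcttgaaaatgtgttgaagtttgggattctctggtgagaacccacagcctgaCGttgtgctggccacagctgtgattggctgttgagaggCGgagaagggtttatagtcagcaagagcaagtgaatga
Spp1, chr5:104434861-104435110, plus strand: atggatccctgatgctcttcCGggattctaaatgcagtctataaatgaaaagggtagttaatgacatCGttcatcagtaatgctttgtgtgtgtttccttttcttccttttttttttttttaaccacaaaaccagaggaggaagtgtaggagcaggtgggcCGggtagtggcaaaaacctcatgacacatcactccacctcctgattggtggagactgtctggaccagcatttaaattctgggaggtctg

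Ihh held 24 CpG and the outer promoter of Alpl 20, while Col10a1 held 5, Spp1 3 and Ibsp 2. The letters TATAAA, on either strand (TTTATA on the other), began 28 bases before the start in Ibsp and 32 in Col10a1, and also occurred 211 bases before the start in Spp1 and 192 before the second, inner start of Alpl, so in 4 of the 12 member promoters, against 12.4% of all promoters. The RUNX core TGTGGT, searched on both strands, occurred 128 bases before the start in Spp1 and 144 in Enpp1, so in 2 of the 12, against 14.0% of all promoters. These are matches of letters in the windows, not measured sites.

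Coverage of the 10 genes by the MspI-based method was uneven. At 12 weeks Ihh had 204 tested cytosines, or 24.6% of the CpG cytosines in its window, while Ibsp had 5, Col10a1 6 and Spp1 6, or 1.15% to 1.91%. All tested member cytosines lay in CpG of GRCm38. Nt5dc1 overlaps the body of Col10a1, Abi3 that of Phospho1 and the long non-coding RNA Gm35775 that of Pth1r, and their cytosines cannot be told apart from those of the members. Likewise the flanks of Panx3, Sp7 and Phospho1 hold parts of Tbrg1 and of the non-coding genes Gm36246 and Gm38958, so values of these flanks may belong to those genes. Over all tested cytosines, the mean 5mC of the oxBS libraries was 26.8% to 28.4% in control and 26.4% to 27.2% in DMM at 4 weeks, and 29.7% to 30.3% and 28.8% to 29.5% at 12 weeks. At 12 weeks the oxBS libraries control 2 and DMM 1, whose titles share a style, had 25.1% and 24.8% over all their own listed cytosines, where the other 4 had 29.8% to 32.0%, and the 12-week results that rest on them are given with and without them.

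The CpG-rich promoters, meaning cytosines within 1 kb of a start, were almost free of 5mC in both limbs. At 12 weeks the promoter mean was 1.38% in control and 1.23% in DMM for Ihh over 126 cytosines, 1.62% and 1.28% for Alpl, and 0.534% and 0.447% for Phospho1. Pth1r, over 113 cytosines, was 1.65%, 1.37% and 1.08% in control and 0.594%, 0.858% and 0.901% in DMM, lower without overlap by 0.583 percentage points, and Enpp1 was higher without overlap by 0.391 points, from 0.379% to 0.770%. These were 1 of 7 member promoters in each direction, against 13.6% of 14709 promoters lower and 4.68% higher. At 20 reads in every library 3 were lower without overlap, with Ihh at -0.529 and Spp1 at -9.21 points beside Pth1r at -0.318, where Ihh and Spp1 had differed by -0.155 and -4.51 with overlap. Weighted by coverage 3 were also lower without overlap, Pth1r (-0.483), Spp1 (-7.45) and Phospho1 (-0.151). The differences without control 2 and DMM 1 were -0.489 points for Pth1r and 0.318 for Enpp1. At 4 weeks all 7 promoter means were lower in DMM, as were 62.5% of all promoters, and 2 were without overlap (6.35% of promoters): Ihh, at 1.83%, 1.39% and 2.20% in control and 1.31%, 1.21% and 1.23% in DMM, and Spp1, at 20.1%, 19.7% and 17.6% in control and 14.5%, 14.3% and 15.5% in DMM. Ihh overlapped at 20 reads in every library (-0.298 points, exact permutation p = 0.3) and weighted by coverage (-0.468, exact permutation p = 0.2). Enpp1 turned to 0.239 points at 20 reads in every library and 0.067 without DMM 2, and Phospho1 to 0.059 without control 1 and 0.011 without DMM 2. Spp1 and Sp7 had the promoters with intermediate 5mC, between 13.0% and 32.1% in single libraries at 12 weeks, from 6 and 5 cytosines. The 12-week difference of the Sp7 promoter was -6.91 points, and -2.45 without control 2 and DMM 1.

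Gene bodies outside promoters were lower in DMM for most members. Where both were measured, bodies carried more 5mC than promoters, except in Sp7 (13.3% in the body and 25.8% in the promoter in control at 12 weeks). At 12 weeks 8 of 9 bodies had lower means in DMM (median -2.64 percentage points), and 4 were without overlap, Alpl, Pth1r, Ihh and Sp7, against 24.2% of 13895 gene bodies; 72.3% of all bodies had lower means, with a median of -1.27. Alpl, over 52 cytosines, was 58.5%, 57.6% and 60.2% in control and 50.9%, 54.1% and 49.3% in DMM. Pth1r, over 36 cytosines, was 31.5%, 31.4% and 32.4% in control and 25.4%, 27.8% and 24.3% in DMM. The differences of -7.35 points for Alpl and -5.92 for Pth1r were larger than the spread between libraries, while the exact permutation test of 3 against 3 libraries (two-sided) cannot go below p = 0.1, the value both reached. Ihh differed by -1.45 points and Sp7 by -2.10, also without overlap. With each cytosine weighted by its coverage, the libraries of Pth1r (-3.98 points, exact permutation p = 0.2), Ihh (-0.784, exact permutation p = 0.6) and Sp7 (-1.95, exact permutation p = 0.3) overlapped, whereas Alpl stayed without overlap (-8.44) and Ibsp came to be without overlap (-12.4), which left 2 bodies. Without control 2 and DMM 1, an alternative chosen after seeing the data, the differences were -7.70 points for Alpl, -5.89 for Pth1r, -1.54 for Ihh and -1.80 for Sp7, where 2 against 2 libraries cannot give an exact permutation p under 0.333.

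In the remaining gene bodies at 12 weeks the libraries overlapped. Ibsp, over 5 cytosines, was 48.9%, 47.8% and 56.4% in control and 32.6%, 48.1% and 35.8% in DMM, a mean difference of -12.2 points. Enpp1 differed by -4.82 points, Col10a1 by -2.64 and Panx3 by -1.36, and Phospho1 by 4.996 in the other direction. The differences were -10.7 points for Ibsp, -3.63 for Enpp1, -4.45 for Col10a1, -0.961 for Panx3 and 1.52 for Phospho1 without control 2 and DMM 1. The directions of Col10a1 and Panx3 each rested on 1 library, since Col10a1 differed by 0.011 points without DMM 3 and Panx3 by 0.954 without control 2. Flanking sequence within 5 kb was lower without overlap for 3 of 6 members, Alpl (-4.55), Sp7 (-1.66) and Phospho1 (-13.9, from 3 cytosines), against 18.5% of 11493 genes, and without control 2 and DMM 1 these were -5.47, -1.33 and -19.9 points. The Alpl flank overlapped at 20 reads in every library (-3.18 points, exact permutation p = 0.3) and weighted by coverage (-3.53, exact permutation p = 0.2), and the Sp7 flank was at -2.66 points when weighted.

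At 4 weeks 7 of 9 gene bodies had lower means in DMM (median -2.81 points, against -1.08 over all bodies and 71.6% of them lower). Col10a1, over 8 cytosines, was 77.3%, 77.3% and 77.6% in control and 70.9%, 74.9% and 71.7% in DMM. Ibsp was 48.7%, 39.4% and 47.4% in control and 36.7%, 31.5% and 37.9% in DMM. Col10a1, Ibsp, Pth1r (-3.03 points) and Sp7 (-2.59) were lower without overlap, which is 4 of 9 bodies against 6.26% of 14054, and Phospho1 was higher without overlap, from 18.6% to 30.9% over 8 cytosines, against 2.37%. At 20 reads in every library Col10a1 (-4.68 points, exact permutation p = 0.2) and Pth1r (-4.38, exact permutation p = 0.3) overlapped, as did Pth1r weighted by coverage (-3.07, exact permutation p = 0.3), while Ibsp and Sp7 stayed without overlap in both, Sp7 at -1.46 points when weighted. Alpl, whose 4-week body differed by -7.29 points with overlap, was without overlap in both (-7.47 and -6.96). Without DMM 2 the Alpl body differed by -4.58 points. The directions of Enpp1 and Panx3 turned when single libraries were left out. Flanks were lower without overlap for 2 of 6 members, Sp7 (-1.45 points) and Panx3 (-0.286 points, from a level of 0.679%), against 5.88% of 11687 genes. Without control 2 the Panx3 flank differed by -0.167 points. The Sp7 flank overlapped at 20 reads in every library (-0.275 points, exact permutation p = 0.9) and weighted by coverage (-1.30, exact permutation p = 0.2). The exact permutation p was again 0.1, the smallest that 3 against 3 libraries allow.

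**Figure D4:**
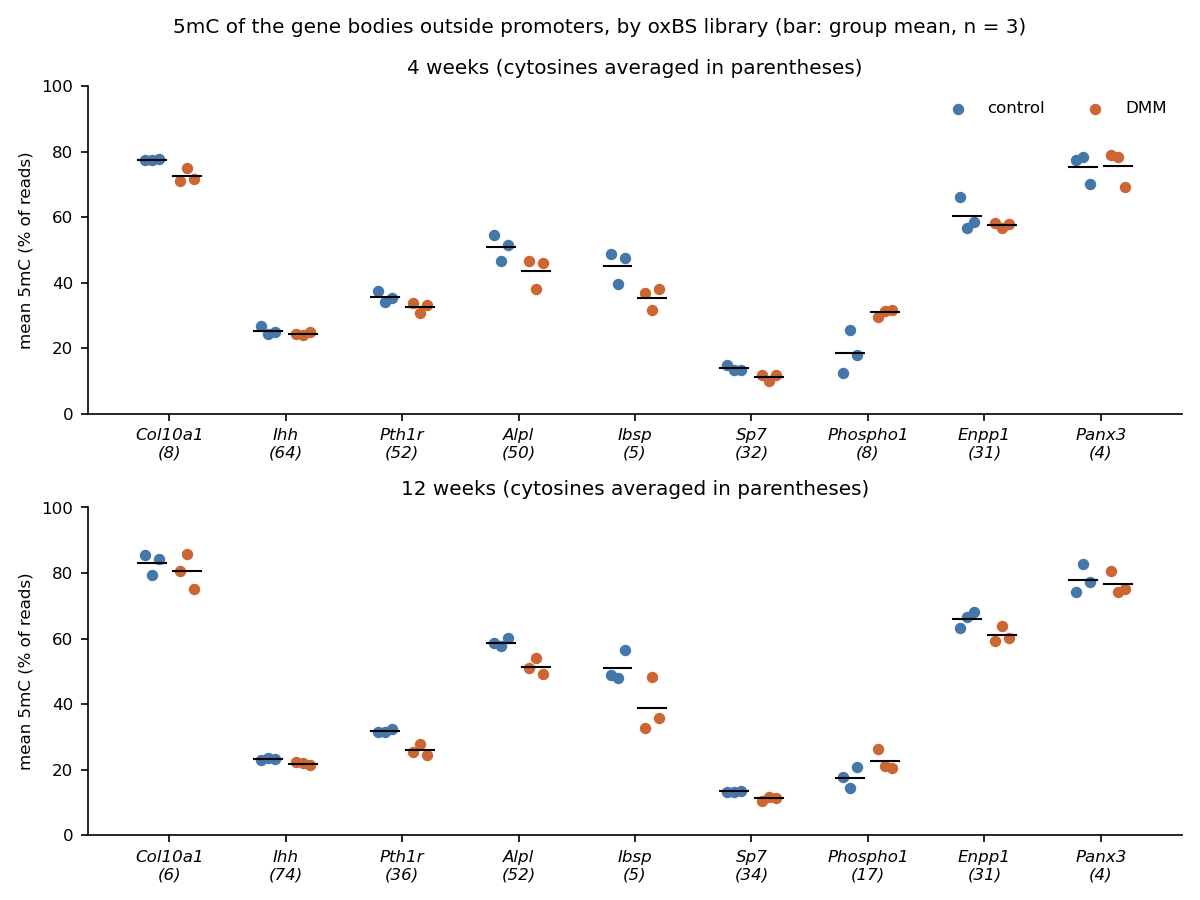
Mean 5mC (percent of reads, axis from 0 to 100) of the gene bodies outside promoters in each oxBS library at 4 and 12 weeks, with the number of cytosines averaged in parentheses, control in blue, DMM in orange and a bar at each group mean. Alpl at 12 weeks shows 3 control points from 57.6% to 60.2% above 3 DMM points from 49.3% to 54.1%.

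Single cytosines were tested on the pooled reads of each group with a likelihood ratio test. At 4 weeks none of the 823 member cytosines had a q under 0.05, 81 had an unadjusted p under 0.05, and over all cytosines 0.0186% and 8.02% did so. No member cytosine passed q with a difference of 25 percentage points, which 0.000554% of all cytosines did. At 12 weeks 82 of 800 member cytosines had an unadjusted p under 0.05 (9.43% of all), 8 had a q under 0.05 (1.11% of all) and 2 also differed by 25 points (0.227% of all). All 8 were lower in DMM, as were 87.4% of all 14184 cytosines with a q under 0.05, and they lay in Alpl (3), Ibsp (2), Spp1 (2) and Pth1r (1). Since these cytosines were chosen for a large pooled difference, the separation of their libraries given below is a description: 72.7% of all cytosines with a q under 0.05 had every DMM library below every control library, against 5.57% of all cytosines tested at 12 weeks. The logistic model on pooled reads takes no account of the spread between libraries. With an overdispersion correction none of the cytosines tested in the genome passed at either week. That correction has few degrees of freedom with 3 libraries per limb and could hardly pass any of so many cytosines, so its result does not decide about the 8. The 8 cytosines also rested on few libraries: 1 member cytosine passed q without control 3 or without DMM 1, 5 passed without control 1 and 14 without control 2.

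The 2 cytosines in Spp1 lie within the 1 kb around its inner start that is taken as promoter, and the other 6 lie in gene bodies. Their surroundings on GRCm38 are shown because the 5mC difference was measured there. Each sequence reads 5′ to 3′ on the strand of the gene, with the tested CpG in capitals. The label gives the feature of the called cytosine, and a stretch can reach into a neighbouring exon or intron.
Pth1r, intron, chr9:110737046-110737126, minus strand: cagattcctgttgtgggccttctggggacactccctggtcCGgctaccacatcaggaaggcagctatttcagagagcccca
Alpl, intron, chr4:137769070-137769228, minus strand: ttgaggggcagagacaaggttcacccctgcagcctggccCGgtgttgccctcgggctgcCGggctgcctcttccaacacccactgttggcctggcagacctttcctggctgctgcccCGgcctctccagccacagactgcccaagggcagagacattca
Alpl, intron, chr4:137770849-137771000, minus strand: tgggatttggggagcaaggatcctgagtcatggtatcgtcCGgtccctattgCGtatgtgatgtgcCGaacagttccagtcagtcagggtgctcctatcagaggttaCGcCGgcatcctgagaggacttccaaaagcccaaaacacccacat
Ibsp, intron, chr5:104303234-104303409, plus strand: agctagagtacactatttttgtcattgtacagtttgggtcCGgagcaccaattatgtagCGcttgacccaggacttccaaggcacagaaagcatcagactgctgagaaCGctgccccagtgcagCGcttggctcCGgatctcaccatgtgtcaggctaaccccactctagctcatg
Spp1, coding exon, chr5:104436401-104436481, plus strand: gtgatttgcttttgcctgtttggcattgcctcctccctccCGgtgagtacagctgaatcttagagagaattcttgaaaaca
Spp1, intron, chr5:104436549-104436629, plus strand: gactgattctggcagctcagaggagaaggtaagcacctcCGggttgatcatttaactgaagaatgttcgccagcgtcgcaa

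The Pth1r cytosine at chr9:110737086, 5524 bases after the nearest start in an intron, was methylated in 45.9%, 52.4% and 78.3% of reads in control and 23.1%, 27.03% and 34% in DMM at 12 weeks. Coverage was 21 to 61 reads in control and 37 to 65 in DMM. The pooled difference was -26.7 points (q = 0.00578), and without control 2 and DMM 1 it was -23.7 points (q = 0.206). The pooled values at 4 weeks were 22.8% in control and 26.9% in DMM. The cytosine was chosen for its 12-week difference, so its higher control level at 12 weeks does not measure a change between weeks.

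In Alpl, the first of the called cytosines, chr4:137769110, lies in an intron at -2635 relative to the inner start and was methylated in 41.2%, 49.0% and 28.0% of reads in control and 18.0%, 17.4% and 14.5% in DMM. Its pooled difference was -24.8 points (q = 0.000634), just short of the 25-point threshold. The cytosine at chr4:137770889, at -4414 from that start, was at 77.1%, 70.8% and 84.8% in control and 51.9%, 36.8% and 55.6% in DMM, with a pooled difference of -27.1 points (q = 0.00419). Both sets of libraries were without overlap. Its neighbour at chr4:137770892 differed by -20.7 points (q = 0.0458), with control 2 and DMM 3 tied at 66.7%. Without control 2 and DMM 1 the 3 differences were -22.3, -30.2 and -21.8 points, with q of 0.139, 0.0631 and 0.278. The 4-week differences were -5.23, -1.37 and 2.87 points, from control levels of 24.4%, 46.3% and 54.4%.

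In Ibsp the called cytosines lie 4056 and 4082 bases after the start in an intron. At the first, chr5:104303343, the control libraries held 47.1%, 50.0% and 56.5% and the DMM libraries 26.5%, 33.3% and 40%, a pooled difference of -19.5 points (q = 0.0225). The second, chr5:104303369, held 50.0%, 53.5% and 65.2% in control and 33.0%, 42.9% and 33.3% in DMM (-19.9 points, q = 0.0227). Neither set overlapped, and both cytosines were also lower without overlap at 4 weeks, by 6.67 and 7.10 points, with no call; 3.74% of all cytosines had this pattern at 4 weeks. Without control 2 and DMM 1 the 12-week differences were -14.4 and -17.8 points, with q of 0.656 and 0.432.

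In Spp1 the cytosine at chr5:104436441, in a coding exon shortly after the inner start, was at 40.7%, 50.0% and 56.5% in control and 17.5%, 39.6% and 23.3% in DMM (pooled difference -21.8 points, q = 0.00509). The other, chr5:104436589, in an intron further downstream, was at 52.9%, 43.5% and 59.6% in control and 34.3%, 31.8% and 31.3% in DMM (-21.3 points, q = 0.0131). Both were without overlap. At 4 weeks they differed by -9.00 and -10.9 points with no call, the second without overlap. Without control 2 and DMM 1 the 12-week differences were -16.2 and -24.0 points, with q of 0.379 and 0.0641.

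Hydroxymethylation of the members was taken as the BS minus the oxBS percentage, averaged over the covered cytosines of a gene and 5 kb to either side. Promoters and flanks are thus included, and for Panx3 at 12 weeks 28 of 32 cytosines lay in the flanks. The values had wide spreads between libraries where few cytosines were covered. Ibsp at 12 weeks was at 5.24, 19.6 and -5.50 points in control and 26.7, 1.85 and 5.71 in DMM, so that single libraries of both limbs lay far apart. The highest value of each limb came from control 2 and DMM 1, whose titles share a style. Without them the values were 5.24 and -5.50 in control and 1.85 and 5.71 in DMM. At 12 weeks the difference was higher without overlap in DMM for Pth1r (0.739, -0.0769 and 0.633 points in control and 1.77, 1.47 and 1.71 in DMM) and for Sp7 (0.0387, 1.09 and 0.850 in control and 3.97, 3.89 and 1.99 in DMM). At 4 weeks it was lower without overlap for Phospho1, from a mean of 1.39 to 0.650 points. These were 2 of 10 members higher at 12 weeks, against 12.2% of 17136 genes, and 1 of 10 lower at 4 weeks, against 2.2% of 17171. The exact permutation p was 0.1 for each, and the other 17 gene and week combinations overlapped. At 20 reads in every library none of the 3 stayed without overlap, with 0.811 points for Pth1r (exact permutation p = 0.5), 1.68 for Sp7 (exact permutation p = 0.2) and -0.667 for Phospho1 (exact permutation p = 0.4), while Alpl at 4 weeks came to be higher without overlap (0.525 points). Without control 2 and DMM 1, an alternative chosen after seeing the data, the 12-week differences were 0.907 points for Pth1r and 2.50 for Sp7. Over all cytosines covered in all 12 libraries of a week, the same difference was 1.43 to 1.63 points in control and 1.77 to 2.35 in DMM at 12 weeks, which also did not overlap, and 1.64 to 2.63 and 2.33 to 2.86 at 4 weeks.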

How the data were processed

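RNA-seq, oxBS and BS libraries (12 each) were grouped by limb and week from the labels. Members and lists were chosen with earlier results of these data known. Per the labels' processing notes, CASAVA 2.17, STAR, featureCounts and Bismark were used on mm10. By the study's methods the authors trimmed reads with FLEXBAR or CUTADAPT, and they deposited raw counts per RefSeq transcript. For DNA the authors deposited the coverage of each CpG cytosine (at least 10 reads) and the percent of reads with C and T. The labels describe poly(A) RNA libraries and the methods SMART-Seq full-length cDNA.

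Counts were fitted here with edgeR 4.0.16 in R 4.3.3 (TMM, edgeR's filter on low counts, robust quasi-likelihood test within each week, Benjamini-Hochberg adjustment over all transcripts). Between weeks and for the interaction of limb and week, all 12 libraries entered 1 fit. DESeq2 1.42.0 was the alternative test. Methylated reads were coverage times percent C. Where all 6 libraries of a week had 10 or more reads, cytosines were tested on pooled reads (logistic likelihood ratio test, q under 0.05, difference of 25 points), and region means by exact permutation tests, in Python 3.11.15 (numpy 2.4.6, pandas 2.3.3, scipy 1.17.1). Sequences were read with samtools 1.23.1 from GRCm38. Tests were tested on simulated data. Read depth limits precision, and coverage covers counting error only.

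Same-numbered libraries of both limbs were not tied to the same mice by the labels, and their deviations did not correlate in every pair (r from -0.585 to 0.37 for RNA), so no pairing was used. Alternatives were other size factors, filters, 1 transcript per gene, a replicate block, coverage minimum of 20, merged strands, overdispersion correction and each library left out. The text names all members, pathway genes called between limbs by edgeR or DESeq2 or between weeks by edgeR, a few further pathway genes with the highest mean level, the 3 genes most like each member, defining markers and called cytosines. Pathway genes that only DESeq2 called between weeks were not added. Pthlh was named after its values were seen. One pathway gene that the rule names is not reported here.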

Additional observations from a re-analysis of the deposited data

How the results depend on the processing

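Depth and 3 libraries per group limit these results. At 12 weeks the direction of all 10 members held in each RNA alternative, but the call did not: of the 10, edgeR called 0, DESeq2 3, and edgeR with the replicate number as a block 5 (Col10a1, Ihh, Pth1r, Alpl and Ibsp), although same-numbered libraries did not each correlate best with their own number, and leaving out 1 library gave 0 to 2. At 4 weeks DESeq2 called 1 and the other alternatives, each library left out and the replicate block included, 0. Over all transcripts edgeR called 16 at 4 weeks and 1 at 12 weeks, DESeq2 747 and 866, the block 354 and 734, 10 counts in every library or 1 transcript per gene 0 at 4 weeks, all 12 libraries in 1 fit 35 at 4 weeks, and no filter 56 at 12 weeks. The cause was not tested. For the interaction, edgeR called 0 and DESeq2 16.

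Between weeks in control, DESeq2 called 2 members against 1, and leaving out 1 library gave 0 to 2; all transcripts called were 1233 in edgeR and 3001 in DESeq2. In DMM the 2 calls became 1 without a filter on low counts, and 0 to 3 with 1 library left out. These weekly alternatives were chosen after seeing the data.

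Direction turned in 16 leave-one-out values, on the log2 scale. At 4 weeks these were Col10a1 (-0.13), Alpl (-0.022) and Enpp1 (-0.15) without control 3, and Col10a1 (-0.20), Pth1r (-0.0032), Alpl (-0.19) and Phospho1 (-0.083) without DMM 1. The full ranges ran to 0.35 for Col10a1, 0.60 for Pth1r, 0.39 for Alpl, 0.27 for Phospho1 and 0.34 for Enpp1. The interaction ranged from -0.21 to 0.25 for Ibsp, from -0.22 to 1.26 for Panx3 and from -0.19 to 0.12 for Spp1. Between weeks the range was -0.79 to 0.042 for Ihh in control and -0.28 to 0.0069 for Spp1 in DMM.

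Of the member cytosines at 12 weeks, 2 passed both thresholds; this became 1 at 20 reads in every library, 0 with the overdispersion correction, 1 without control 2 and DMM 1, and 1 to 6 with 1 library left out. The 8 with q under 0.05 became 0 with the correction, 1 without control 2 and DMM 1, 9 with the replicate block, 12 with strands merged, and 1 to 14 with 1 library left out (fewest without control 3 or DMM 1, most without control 2). With 3 libraries per limb the overdispersion correction could hardly pass any cytosine. At 4 weeks the count of 0 became 3 with the replicate block and 0 to 3 with 1 library left out (3 without control 2). Over all cytosines, 8 passed at 4 weeks (58 with the block, 5 to 3039 with 1 left out) and 2892 at 12 weeks (2836 with the block, 1641 to 5720 with 1 left out).

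Of the region means, 4 values at 4 weeks and 10 at 12 weeks moved by more than the spread between replicates, most of them with 20 reads in every library or with means weighted by coverage. Weighted by coverage, the 12-week body of Pth1r differed by -3.98 points and that of Ihh by -0.784. At 20 reads in every library, the 12-week difference in hydroxymethylation was 0.811 points for Pth1r and 1.68 for Sp7, and the 4-week flank of Sp7 differed by -0.275 points. For hydroxymethylation, the fits without single libraries were chosen after seeing the data, and they turned the direction of 3 members at 4 weeks and 2 at 12 weeks.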
